A study of Mus musculus with 16 samples.

Results

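The genes described are 4 ligands of the bone morphogenetic protein (BMP) pathway (Bmp2, Bmp4, Bmp6 and Bmp7), the 4 Id genes that BMP signalling is known to switch on (Id1, Id2, Id3 and Id4), and 2 of its SMADs (Smad1 and Smad6). The rule that picked them was a list of symbols, and all 10 were found among the 16707 genes of the deposited expression table. In cultured astrocytes given LPS and IFNγ, Bmp7 was called higher and Bmp4, Bmp6, Id4 and Smad6 lower in both WT and Nlrx1-/- cells. Of these, only Bmp7 and Id4 kept their calls in both genotypes under all alternative settings. Id1 and Smad1 passed the test in neither genotype. Id2 and Id3, which rose by small amounts in WT cells, did not pass the test in Nlrx1-/- cells. With all litters, none of the 10 passed in edgeR for a difference of responses between the genotypes.

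BMPs are secreted dimers that bring together type I and type II receptor kinases. The activated type I receptor phosphorylates SMAD1, SMAD5 or SMAD9, which enter the nucleus with SMAD4 and raise the transcription of targets such as the Id genes. Id proteins have a helix-loop-helix domain but no DNA-binding region, so they pair with E proteins such as TCF3 and TCF12 and keep them from DNA. SMAD6 is an inhibitory SMAD that is itself a BMP target. In the developing brain BMP signalling is known to favour astrocytes over oligodendrocytes, and ID2 and ID4 are known as inhibitors of oligodendrocyte differentiation.

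NLRX1 is a mitochondrial member of the NOD-like receptor family, and the study asked how its loss changes the inflammatory response of astrocytes. WT (C57BL6J) and Nlrx1-/- astrocytes were purified from P6 mouse brains with beads against the surface antigen ACSA2 and cultured without serum, with heparin-binding EGF, before treatment. Each culture set, called a litter here, came from 1 set of pups of 1 genotype and gave 1 vehicle (water) well and 1 well with 500 ng/mL LPS plus 10 ng/mL IFNγ, both for 24 h. With 4 litters per genotype there were 16 libraries of polyA RNA, each with 27259420 to 43752903 read pairs assigned to transcripts (median 35554625).

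Nlrx1 itself ranged from 4.08 to 4.44 log2 CPM (normalized read counts on a log2 scale, from the deposited table) in the 8 WT libraries and from 1.09 to 2.96 in the 8 Nlrx1-/- libraries, so the groups did not overlap. The 7 astrocyte markers summed to 2392 to 5531 TPM (a level scaled by transcript length), and Gfap had a median of 689 TPM. Of 6 microglial markers, P2ry12 was the only one above 0 in every library, and the 6 together reached at most 1.68 TPM. The 5 oligodendrocyte lineage markers (Pdgfra, Cspg4, Sox10, Mbp and Mog) were above 0 in every group. Mog, however, was at 0 in 6 of the 16 libraries and reached at most 0.514 TPM. In vehicle, the WT litters, in order from 1 to 4, had summed levels of 214, 201, 348.5 and 312 TPM. The Nlrx1-/- litters had 166, 66.2, 254 and 92.7 TPM. With LPS + IFNγ the sum was 82.2, 94.2, 153 and 181 in WT and 57.3, 31.1, 93.6 and 29.4 in Nlrx1-/- cells. Nlrx1-/- litter 3 had the highest sum of the Nlrx1-/- litters in both treatments and the lowest Nlrx1 level. With LPS + IFNγ, Nlrx1 was at 1.09 log2 CPM in this litter and at 2.19, 2.09 and 2.23 in Nlrx1-/- litters 1, 2 and 4. A search for samples far from their group found 0 among 60 groups of values. That search is not known to have covered Nlrx1 or the marker sums, so it does not clear this litter for them. Results that change without this litter are given with and without it, a choice made after its values were seen. In bulk RNA, fewer cells of a type and less RNA per cell cannot be told apart.

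All 10 genes are protein-coding. On GRCm39, the build of the files, the ligands lie at chr2:133394079-133404816 (Bmp2, plus strand), chr14:46620250-46636745 (Bmp4, minus), chr13:38529065-38684280 (Bmp6, plus) and chr2:172709805-172782410 (Bmp7, minus). The Id genes lie at chr2:152566218-152579544 (Id1, plus), chr12:25143798-25147282 (Id2, minus), chr4:135870808-135873066 (Id3, plus) and chr13:48414558-48419502 (Id4, plus). Smad1 is at chr8:80065023-80126168 and Smad6 at chr9:63860341-63929793, both on the minus strand, and Smad6 shares its chromosome with Nlrx1 (chr9:44164011-44179896). Most reads of each gene came from 1 transcript, with a share of 95.1% for Id1 and 86.4% for Smad6, which has another transcript with 13.6%.

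The 250 bases before the start of transcription are shown for Id2 and Id3, which rose slightly in WT cells, for Id4, which fell, and for Bmp6 and Smad6, which fell together. They were taken from RefSeq promoters on GRCm38.p6, which held 7 of the 10 genes. Capitals mark GGCGCC, a GC-rich motif to which BMP SMADs bind, and CAGAC or its reverse complement GTCTG, the core of the general SMAD-binding element. The windows are Id2 chr12:25096093-25096342 (minus strand), Id3 chr4:136143572-136143821 (plus), Id4 chr13:48260866-48261115 (plus), Bmp6 chr13:38345466-38345715 (plus) and Smad6 chr9:64022060-64022309 (minus).
Id2: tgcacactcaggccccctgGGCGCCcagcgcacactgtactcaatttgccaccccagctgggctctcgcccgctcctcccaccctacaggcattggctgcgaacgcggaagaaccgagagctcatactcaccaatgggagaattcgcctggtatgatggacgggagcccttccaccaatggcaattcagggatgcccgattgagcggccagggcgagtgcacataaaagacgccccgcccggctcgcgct
Id3: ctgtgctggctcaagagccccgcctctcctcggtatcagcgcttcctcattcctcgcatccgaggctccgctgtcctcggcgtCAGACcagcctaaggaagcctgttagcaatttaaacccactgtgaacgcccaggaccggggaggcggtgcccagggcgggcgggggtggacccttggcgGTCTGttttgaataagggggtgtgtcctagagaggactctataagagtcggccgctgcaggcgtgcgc
Id4: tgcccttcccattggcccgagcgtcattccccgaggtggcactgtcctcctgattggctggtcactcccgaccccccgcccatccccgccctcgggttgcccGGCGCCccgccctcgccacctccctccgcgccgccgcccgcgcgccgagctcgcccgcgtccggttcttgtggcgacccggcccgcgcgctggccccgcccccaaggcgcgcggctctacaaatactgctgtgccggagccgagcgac
Bmp6: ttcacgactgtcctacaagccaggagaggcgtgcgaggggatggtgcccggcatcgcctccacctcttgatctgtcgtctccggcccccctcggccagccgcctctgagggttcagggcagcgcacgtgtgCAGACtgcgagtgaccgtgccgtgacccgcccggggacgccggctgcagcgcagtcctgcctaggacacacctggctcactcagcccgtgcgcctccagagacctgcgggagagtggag
Smad6: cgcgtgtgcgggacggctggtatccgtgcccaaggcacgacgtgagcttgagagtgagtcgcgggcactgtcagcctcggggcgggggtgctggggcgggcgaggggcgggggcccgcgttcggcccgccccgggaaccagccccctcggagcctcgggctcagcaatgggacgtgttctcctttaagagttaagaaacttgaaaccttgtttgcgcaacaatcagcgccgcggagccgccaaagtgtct

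With the base before the start of transcription counted as position -1, GGCGCC begins at -231 of Id2 and at -148 of Id4, and 9.59% of 32851 RefSeq promoters hold it on either strand within the same window. Matches to CAGAC begin at -167 and -68 of Id3 and at -119 of Bmp6, and 42.2% of all promoters hold it. The STAT motif TTCNNNGAA, through which IFNγ acts on many genes, was in none of the 7 windows and in 7.02% of all promoters. The window of Id4 had a GC content of 75.6%, against a median of 52.4% over all promoters. A match to letters is a description of the sequence and not a measured site.

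The genes span a wide range of levels per length. Over the 16 libraries, Id3 had the highest mean at 340.5 TPM, followed by Id2 at 98.3, Id1 at 92.5, Smad1 at 46.8, Id4 at 29.8 and Bmp7 at 18.9 TPM. Bmp4 (4.28 TPM), Bmp6 (3.22), Smad6 (1.03) and Bmp2 (0.384) were low, and Bmp2 rested on only 7 to 60 read pairs per library. In WT vehicle cells, Id2 (119 ± 9.14 TPM, SD, n = 4) and Id1 (114 ± 16.7) did not differ beyond their spread, nor did Id4 (59.1 ± 17.9) and Smad1 (54.5 ± 2.07), nor Bmp6 (7.72 ± 2.69), Bmp4 (7.53 ± 2.48) and Bmp7 (5.17 ± 1.15). After LPS + IFNγ the ligands were separated, with Bmp7 at 21.4 ± 5.58, Bmp4 at 4.01 ± 0.647 and Bmp6 at 1.49 ± 0.481 TPM in WT cells. Bmp7 then supplied 86.7, 76.8, 73.9 and 75.5% of the summed TPM of the 4 ligands in WT litters 1 to 4, up from 38.8, 23.4, 20.5 and 20.1% in vehicle. In Nlrx1-/- cells its share was 58.6, 90.1, 26.7 and 82.8% in vehicle and 95, 95.7, 85.2 and 93.4% after stimulation. The summed ligand level itself was 20.8 ± 4.36 TPM in vehicle and 27.1 ± 4.93 TPM with LPS + IFNγ in WT cells, and 19.5 ± 4.4 and 39.6 ± 6.44 TPM in Nlrx1-/- cells.

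**Figure D1:**
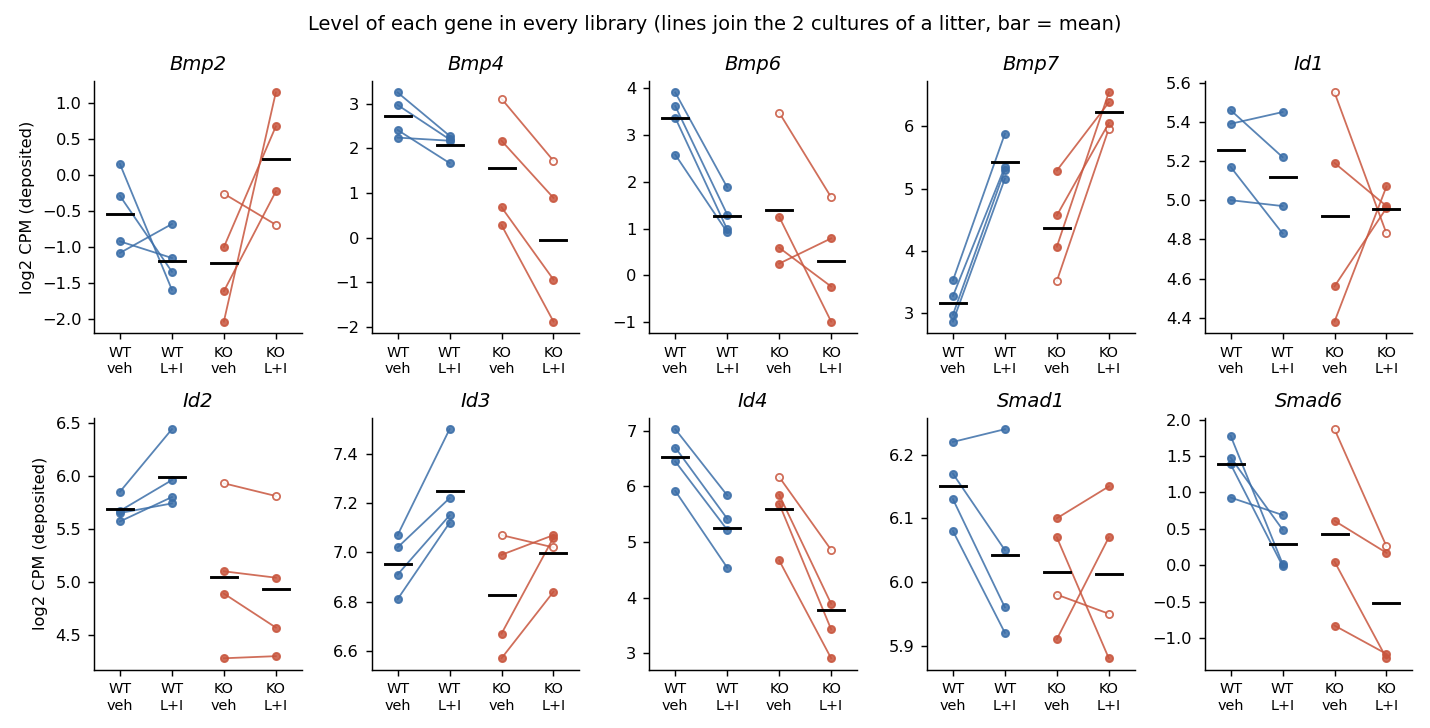
Deposited log2 CPM of the 10 genes in each of the 16 libraries (veh, vehicle; L+I, LPS + IFNγ; KO, Nlrx1-/-), with lines joining the 2 cultures of a litter, black bars at group means and open symbols for Nlrx1-/- litter 3. Bmp7 rises and Id4 falls in all 8 litters, and Nlrx1-/- litter 3 has the highest Nlrx1-/- level of Bmp4, Bmp6, Id2 and Id4 in both treatments.

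The first comparison was of LPS + IFNγ with vehicle within each genotype, with each litter compared with itself. In WT cells 3 of the 10 genes were called higher (Bmp7, Id2 and Id3) and 4 lower (Bmp4, Bmp6, Id4 and Smad6) at an adjusted p below 0.05 in edgeR, where 43.9% of all 16066 genes tested were called, 23.7% higher and 20.2% lower. In Nlrx1-/- cells 1 was called higher (Bmp7) and 4 lower (Bmp4, Bmp6, Id4 and Smad6), against a background of 49.4% (25.3% higher and 24.2% lower). At an unadjusted p below 0.05 the numbers were 7 of 10 in each genotype, against 51.3% of all genes in WT and 55.7% in Nlrx1-/- cells. All 4 litters moved the same way for 7 of the 10 genes in WT and for 4 in Nlrx1-/- cells, against 61.2 and 58.7% of all genes. The median log2 fold change of the 10 was -0.41 in WT and -0.08 in Nlrx1-/- cells, and over all genes it was -0.02 and -0.03. The Nlrx1-/- count of calls was close to the background share. The WT count rests on 10 genes and fell to 1 higher and 2 lower without the litter pairing. Nothing particular to these genes is read from either count.

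Bmp7, a ligand that is widely made in developing organs, had the largest rise of the 10 genes in each genotype. In Nlrx1-/- cells it was the only gene of the 10 called higher. In WT litters 1 to 4 it was at 3.53, 2.98, 3.28 and 2.87 log2 CPM in vehicle and at 5.88, 5.30, 5.35 and 5.16 with LPS + IFNγ. In Nlrx1-/- litters it was at 4.07, 5.29, 3.52 and 4.57 in vehicle and at 6.54, 6.38, 5.96 and 6.05 with LPS + IFNγ. All 8 litters rose, and vehicle and stimulated libraries did not overlap within a genotype. The edgeR log2 fold change was 2.25 (SE 0.21, 4.76-fold, adjusted p = 1.3e-05) in WT and 1.85 (SE 0.20, 3.60-fold, adjusted p = 3.37e-05) in Nlrx1-/- cells, and it was called in both under all 15 alternative settings. The WT litters rose by 2.07 to 2.35, a narrow range, whereas Nlrx1-/- litters 2 and 4, which began highest in vehicle, rose by 1.10 and 1.48.

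Bmp6 fell. It was at 2.58, 3.62, 3.91 and 3.37 log2 CPM in WT vehicle and at 0.92, 1.30, 1.88 and 0.98 in WT LPS + IFNγ libraries, without overlap. The WT log2 fold change in edgeR was -2.15 (SE 0.35, 4.43-fold lower, adjusted p = 0.000608). The Nlrx1-/- litters were scattered, at 1.25, 0.59, 3.48 and 0.25 in vehicle and at -0.99, -0.24, 1.67 and 0.79 after stimulation, so that litter 4 rose while the others fell. Its log2 fold change there was -1.15 (SE 0.38, edgeR adjusted p = 0.0293), and the call was lost without Nlrx1-/- litter 1, 2 or 3 (log2 fold change from -1.72 to -0.81 over the left-out litters, highest adjusted p = 0.155).

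Bmp4 fell as well, and by more in Nlrx1-/- litters. The WT litters were at 2.41, 2.24, 3.25 and 2.97 log2 CPM in vehicle and at 1.67, 2.17, 2.28 and 2.20 after stimulation. The Nlrx1-/- litters were at 2.17, 0.28, 3.11 and 0.68 in vehicle and at 0.89, -1.88, 1.72 and -0.94 after stimulation. Bmp4 rested on 6 to 118 read pairs in the stimulated Nlrx1-/- libraries. Each of the 8 litters fell, although the 2 treatments overlapped in level within each genotype, since the litters began at different levels. In edgeR the log2 fold change was -0.66 (SE 0.19, adjusted p = 0.0185) in WT and -1.60 (SE 0.22, adjusted p = 0.000163) in Nlrx1-/- cells. The WT call was lost without WT litter 1, 3 or 4 (from -0.84 to -0.55, highest edgeR adjusted p = 0.107).

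Bmp2, the least abundant ligand, ranged from -2.03 to 1.14 log2 CPM. In WT cells 3 of 4 litters fell and 1 rose (log2 fold change -0.74, SE 0.63, edgeR adjusted p = 0.373), and in Nlrx1-/- cells 3 rose and 1 fell (1.55, SE 0.65, adjusted p = 0.0693). Neither passed the test. Without Nlrx1-/- litter 3, the litter that fell, the Nlrx1-/- value was 2.22 (edgeR adjusted p = 0.0153).

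**Figure D2:**
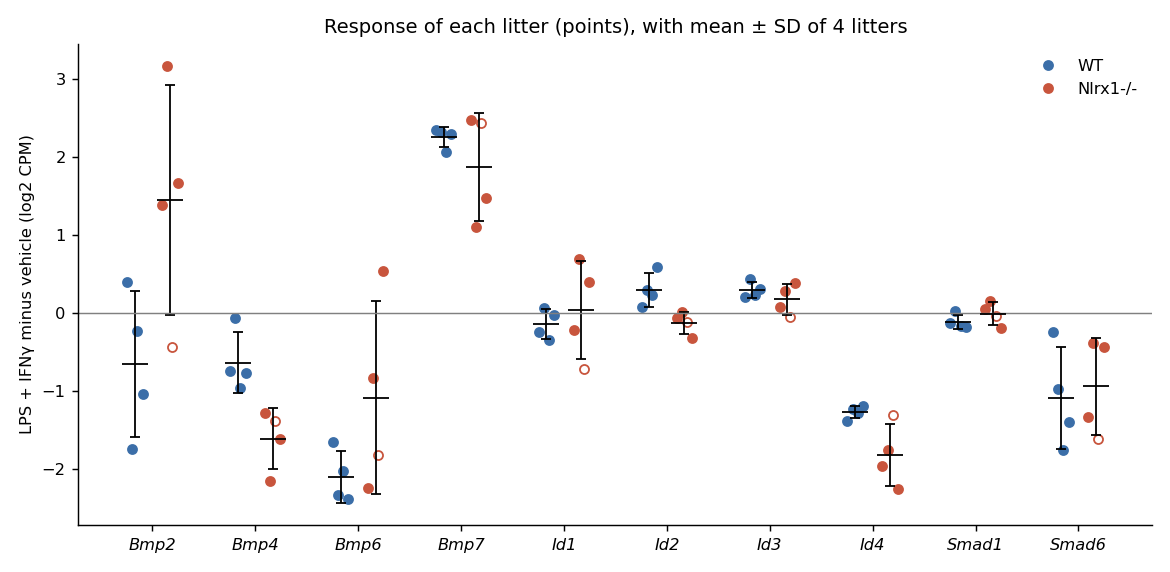
Response of each litter, as LPS + IFNγ minus vehicle in deposited log2 CPM, for WT (blue) and Nlrx1-/- (red, litter 3 open), with black lines at the mean ± SD of 4 litters. Bmp4 and Id2 are the 2 genes where every Nlrx1-/- litter lies below every WT litter, with mean responses of -1.61 against -0.64 and of -0.12 against 0.30.

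Among the Id genes the responses were unequal, and Id4 was the one with a large change. Id4, which can pair with other Id and E proteins, was at 5.92, 6.45, 6.70 and 7.03 log2 CPM in WT vehicle litters and at 4.54, 5.22, 5.42 and 5.84 after stimulation. The Nlrx1-/- litters went from 5.85, 4.67, 6.17 and 5.69 to 3.89, 2.91, 4.86 and 3.43. All 8 litters fell, by 1.19 to 1.38 in WT and by 1.31 to 2.26 in Nlrx1-/- cells. The edgeR log2 fold change was -1.28 (SE 0.12, adjusted p = 1.56e-05) in WT and -1.83 (SE 0.13, adjusted p = 1.46e-06) in Nlrx1-/- cells, called under all 15 alternatives in each genotype. Of the summed TPM of the 4 Id genes, Id4 made up 9.18 ± 3.07% in WT vehicle and 3.47 ± 1.24% after stimulation, against 5.8 ± 1.27% and 1.7 ± 0.889% in Nlrx1-/- cells.

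Id2 moved up slightly in WT cells. The WT litters were at 5.65, 5.67, 5.57 and 5.85 log2 CPM in vehicle and at 5.74, 5.96, 5.80 and 6.44 after stimulation, and the Nlrx1-/- litters at 5.10, 4.28, 5.93 and 4.89 and then at 5.04, 4.30, 5.81 and 4.57. The 4 WT litters rose and 3 of the 4 Nlrx1-/- litters fell, while Nlrx1-/- litter 2 moved by 0.01. The WT log2 fold change was 0.29 (SE 0.09, edgeR adjusted p = 0.0186) and was not called without WT litter 2 or litter 4 (0.19 to 0.37 over the left-out litters, highest adjusted p = 0.0904). The Nlrx1-/- value of -0.14 (SE 0.09, edgeR adjusted p = 0.223) did not pass.

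Id3, the most abundant Id gene, was at 7.02, 7.07, 6.91 and 6.81 log2 CPM in WT vehicle and at 7.22, 7.5, 7.15 and 7.12 in stimulated WT litters, without overlap. Its log2 fold change was 0.28 (SE 0.07, edgeR adjusted p = 0.00737). In Nlrx1-/- cells 3 of 4 litters rose, from 6.99, 6.57, 7.07 and 6.67 to 7.07, 6.84, 7.02 and 7.06, and the value of 0.16 (SE 0.07, edgeR adjusted p = 0.0819) did not pass, although it did without litter 3 (0.23, adjusted p = 0.0256). Id1 ranged from 4.38 to 5.55 log2 CPM over the 16 libraries, with no common direction among litters. The log2 fold changes of Id1 were -0.15 (95% interval -0.55 to 0.25) in WT and 0.02 (-0.39 to 0.42) in Nlrx1-/- cells. Both intervals hold 0, and with 4 litters changes within these bounds remain possible. The 4 Id genes together summed to 649 ± 24.3 TPM in WT vehicle and 615 ± 55 TPM after stimulation, and to 517 ± 140 and 463 ± 58.7 TPM in Nlrx1-/- cells.

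Of the SMADs, Smad1, a receptor-activated SMAD that carries the BMP signal, was even in level, between 5.88 and 6.24 log2 CPM in all libraries. Its log2 fold change was -0.12 (95% interval -0.26 to 0.02) in WT and -0.02 (-0.16 to 0.12) in Nlrx1-/- cells. Smad6, the inhibitory SMAD, had vehicle levels of 0.93, 1.48, 1.78 and 1.39 log2 CPM in the WT litters and stimulated levels of 0.69, 0.49, 0.02 and -0.01. The vehicle levels of its Nlrx1-/- litters were 0.05, -0.83, 1.87 and 0.61 and the stimulated ones -1.28, -1.22, 0.26 and 0.17. All 8 litters fell. Smad6 was read at 10 to 156 read pairs per library, and its log2 fold changes were -1.14 (SE 0.33, edgeR adjusted p = 0.018) in WT and -1.04 (SE 0.35, edgeR adjusted p = 0.0309) in Nlrx1-/- cells. Its WT call was lost without WT litter 2, 3 or 4 (from -1.43 to -0.92, highest edgeR adjusted p = 0.0981), and its Nlrx1-/- call without Nlrx1-/- litter 1 or 3 (from -1.27 to -0.80, highest edgeR adjusted p = 0.149).

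Oligodendrocyte lineage markers fell with Bmp4, Bmp6, Id4 and Smad6. Of the 5 markers, 4 were called lower in edgeR in each genotype, against 20.2% of all genes in WT and 24.2% in Nlrx1-/- cells. The median log2 fold change over all 5 was -0.39 in WT and -0.94 in Nlrx1-/- cells. Mbp fell by 1.23 and 2.21 and Pdgfra by 1.35 and 1.58 on the log2 scale. The exception, Mog, had fitted values of 0.91 in WT (adjusted p = 0.436) and 0.81 in Nlrx1-/- cells (adjusted p = 0.706), at levels of at most 0.514 TPM. The part of the marker change in these results was not tested. Olig2, which is found in this lineage and in some astrocytes, was at 409 ± 112 TPM in WT vehicle, 350.0 ± 135 TPM in stimulated WT, 439 ± 113 TPM in Nlrx1-/- vehicle and 365 ± 81.7 TPM in stimulated Nlrx1-/- cells.

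**Figure D3:**
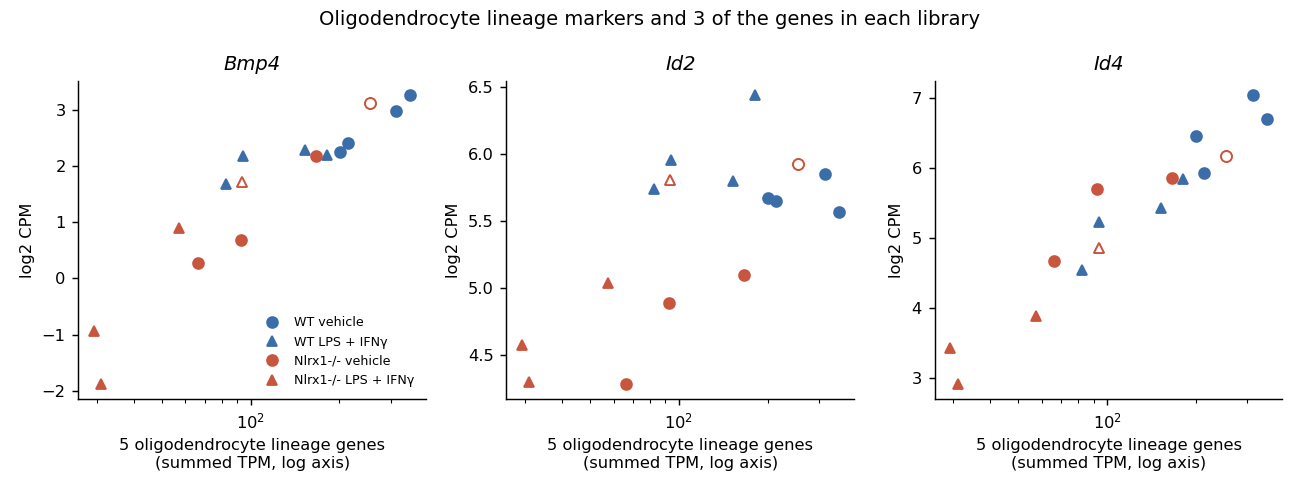
Deposited log2 CPM of Bmp4, Id2 and Id4 in each library against the summed TPM of 5 oligodendrocyte lineage markers on a log axis, with circles for vehicle, triangles for LPS + IFNγ and open symbols for Nlrx1-/- litter 3. Nlrx1-/- litters 2 and 4 have the lowest marker sums within each treatment (66.2 and 92.7 TPM in vehicle, 31.1 and 29.4 TPM with LPS + IFNγ) and the lowest Bmp4 and Id2.

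The second comparison was of the responses between the genotypes, which asks whether the loss of Nlrx1 changed what LPS + IFNγ did. By edgeR 0 of the 10 genes, and 0% of all genes tested, passed for the difference of the responses. At an unadjusted p below 0.05 it was 4 of 10 (Bmp2, Bmp4, Id2 and Id4) and 15.4% of all genes. DESeq2, limma-voom and limma on the deposited values also called 0 of the 10. In the litter values themselves, 2 of the 10 genes, Bmp4 and Id2, had Nlrx1-/- responses that all lay below the WT responses, as 8.31% of all genes had responses without overlap in either direction.

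Bmp4 responses were -0.74, -0.07, -0.96 and -0.77 in WT litters and -1.28, -2.16, -1.39 and -1.62 in Nlrx1-/- litters, a difference of means of -0.976 (exact two-sided permutation test, p = 0.0286, the smallest p that 4 against 4 litters allow). The Id2 responses were 0.08, 0.29, 0.23 and 0.59 in WT and -0.06, 0.01, -0.12 and -0.32 in Nlrx1-/- litters, a difference of -0.42 (exact permutation p = 0.0286). In edgeR the differences were -0.94 (SE 0.29, adjusted p = 0.223) for Bmp4 and -0.43 (SE 0.12, adjusted p = 0.223) for Id2, so neither passed over all genes. Id4 followed with -0.55 (SE 0.18, edgeR adjusted p = 0.226), and its responses overlapped in 1 litter, Nlrx1-/- litter 3. Without that litter the Id4 difference was -0.75 (edgeR adjusted p = 0.0363), and 1.95% of all genes were called. The difference for Bmp2 was 2.28 (95% interval 0.28 to 4.29, edgeR adjusted p = 0.28), on few reads. Bmp6 had a difference of 1.00 (-0.14 to 2.14), Bmp7 of -0.40 (-1.04 to 0.23), Id3 of -0.12 (-0.34 to 0.09), Id1 of 0.17 (-0.40 to 0.74), Smad1 of 0.10 (-0.09 to 0.30) and Smad6 of 0.10 (-0.997 to 1.2), each with a 95% interval that holds 0. Among the lineage markers, Mbp had a difference of -0.98 (edgeR adjusted p = 0.217), and the part of these markers was not tested.

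The third comparison was of the levels of the genotypes within a treatment. In vehicle, edgeR called 0 of the 10 genes and 0% of all genes (unadjusted p below 0.05 for 3 of 10, Bmp6, Bmp7 and Id4, and for 19.6% of all genes), whereas DESeq2 called 1, Bmp7, and 5.89% of all genes. Limma-voom and limma on the deposited values called 0. Nlrx1, the targeted gene, did not pass edgeR in vehicle either (-1.70, SE 0.24, adjusted p = 0.0538, the lowest of all genes). With LPS + IFNγ it passed (-2.19, SE 0.25, edgeR adjusted p = 0.00318). None of the 10 had vehicle levels without overlap between the genotypes, against 9.45% of all genes. Bmp7 was 1.31 higher in Nlrx1-/- cells on the log2 scale (SE 0.30, edgeR adjusted p = 0.111), Bmp6 had a difference of -1.46 (SE 0.64, adjusted p = 0.231) and Id4 one of -0.90 (SE 0.39, adjusted p = 0.221). Without Nlrx1-/- litter 3, edgeR called Bmp6 (-2.74, adjusted p = 0.00823), Bmp7 (1.54, adjusted p = 0.00972) and Id2 (-0.90, adjusted p = 0.0268), and 8.04% of all genes.

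With LPS + IFNγ, 0 of the 10 genes were called by edgeR, where 5.03% of all genes were (2.65% higher and 2.38% lower in Nlrx1-/- cells). The unadjusted p was below 0.05 for 6 of the 10 (Bmp2, Bmp4, Bmp7, Id2, Id3 and Id4) and for 28.4% of all genes, and DESeq2 called 3 (Bmp7 higher, Id2 and Id4 lower) and 18% of all genes. The largest differences were 1.65 for Bmp2 (SE 0.52, edgeR adjusted p = 0.0648), -1.56 for Bmp4 (SE 0.67, adjusted p = 0.141), -1.38 for Id4 (SE 0.40, adjusted p = 0.0536) and -0.97 for Id2 (SE 0.32, adjusted p = 0.0751). Bmp7 differed by 0.79 (SE 0.28, edgeR adjusted p = 0.0905) and Id3 by -0.27 (SE 0.11, adjusted p = 0.13). Levels did not overlap for 2 genes, Bmp7, with every Nlrx1-/- library above every WT library, and Id3, with every one below (exact permutation p = 0.0286 for each), and the same held for 13.3% of all genes in either direction. Without Nlrx1-/- litter 3, edgeR called 6 of the 10: Bmp2 (1.89, adjusted p = 0.0156) and Bmp7 (0.87, 0.0243) higher, and Bmp4 (-2.35, 0.0159), Bmp6 (-1.34, 0.0449), Id2 (-1.37, 0.00346) and Id4 (-1.89, 0.0054) lower. The same omission took the share of all genes called from 5.03 to 20.5%.

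**Figure D4:**
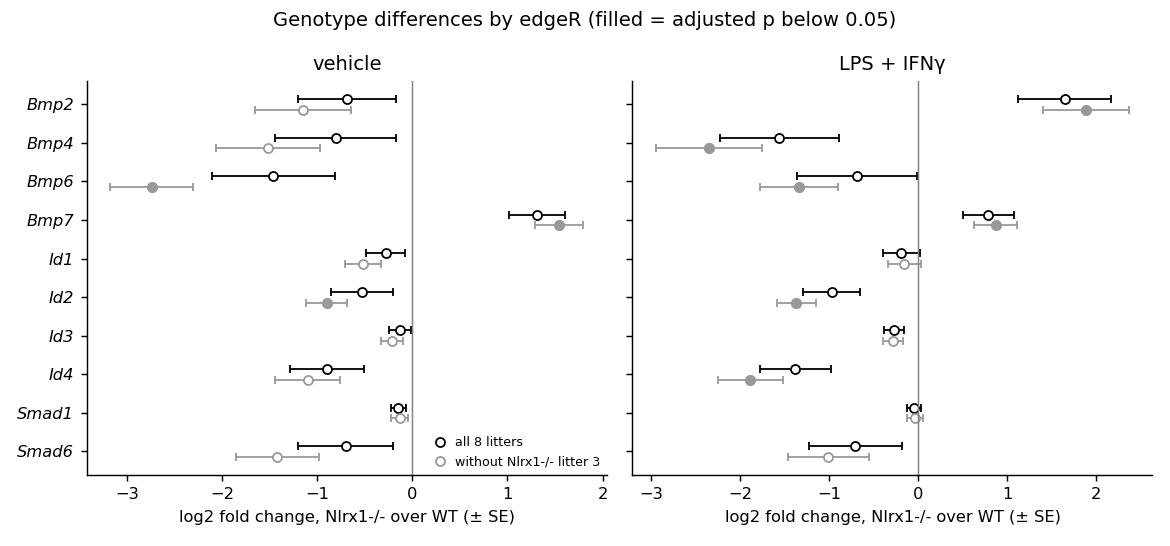
Log2 fold change of Nlrx1-/- over WT (edgeR, ± SE) for the 10 genes in vehicle and in LPS + IFNγ, with all 8 litters (black) and without Nlrx1-/- litter 3 (grey), where filled points have an adjusted p below 0.05. No black point is filled, and without litter 3 the filled ones are Bmp6, Bmp7 and Id2 in vehicle and Bmp2, Bmp4, Bmp6, Bmp7, Id2 and Id4 with LPS + IFNγ.

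The litters that set the spread were the same for several genes. In Nlrx1-/- vehicle litters, the order from high to low was 3, 1, 4, 2 for Bmp4, Id2 and Id4 and for the summed oligodendrocyte lineage markers, and litter 3 was highest for Bmp6 and Smad6 as well. With each library centred on the mean of its treatment and genotype, Pearson's r over the 16 libraries was 0.87 between Bmp4 and Id2, 0.87 between Id2 and Id4, 0.83 between Bmp4 and Id4 and 0.78 between Bmp6 and Smad6. Bmp7 ran the other way, with r of -0.74 to Bmp6, -0.73 to Id2 and -0.73 to Id4. The libraries share litters in pairs, so these values only describe them. Id1 and Id3 formed a pair of their own (r = 0.87), apart from Id4 (0.06 to Id1 and 0.26 to Id3).

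Of 12530 genes, the 3 whose centred levels were most like those of Id1 were Id3 (r = 0.87, Spearman's rho 0.84), Spsb1 (0.86, rho 0.79) and Jund (0.84, rho 0.71). For Id3 they were Chrdl1, which encodes a BMP antagonist (r = 0.88, rho 0.84), Id1 and Pmepa1, a known target of TGF-β signalling (0.86, rho 0.81). The order of genes at the top differs by little in r.

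The other genes of the pathway came from a list of 62, of which 47 were expressed enough to be tested. In WT cells 8 were called higher and 13 lower by edgeR, 44.7% of the 47 against 43.9% of all genes. In Nlrx1-/- cells 15 were called higher and 15 lower, 63.8% against 49.4%. The difference of the responses was called for 0 of the 47 in edgeR (8 at an unadjusted p below 0.05), and for 0 by DESeq2, limma-voom or limma on deposited values.

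Among 4 other ligands tested, Bmp3, which opposes osteogenic BMPs, fell most, by 2.64 in WT and 3.07 in Nlrx1-/- cells on the log2 scale, from 4.78 ± 0.688 to 0.669 ± 0.154 TPM in WT. Gdf11 rose by small amounts (0.36 and 0.32). Gdf6 was called in Nlrx1-/- cells (-2.80, adjusted p = 0.0112) and had -1.81 in WT (adjusted p = 0.0625), and Bmp5, with group means of at most 0.104 TPM, was called in neither (-0.19 and 2.21).

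Of 9 receptors and co-receptors, the type I receptor Bmpr1a rose (0.38 in WT and 0.27 in Nlrx1-/- cells) and the other type I receptor Bmpr1b fell (-0.71 and -1.17, from 48.7 ± 4.28 to 25.9 ± 3.91 TPM in WT). The type II receptors Acvr2b (-0.94 and -1.03) and Bmpr2 (-0.15 and -0.13) fell, and the co-receptor Rgmb rose (0.40 and 0.66). Acvr2a was called in WT (-0.29) and had -0.14 in Nlrx1-/- cells. Acvr1 (0.24 in WT, 0.38 in Nlrx1-/- cells), Eng (0.67, 1.32) and Rgma (-0.33, -0.61) were called in Nlrx1-/- cells.

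Secreted antagonists and modulators moved both ways. Of 13 tested, follistatin (Fst) rose by 2.60 in WT and 2.56 in Nlrx1-/- cells, at levels of at most 3.29 TPM in group means, and Twsg1 (0.85 and 0.68), Chrdl1 (0.51 and 0.86) and Fstl1 (0.46 and 1.02) rose too. Noggin (Nog), which binds BMPs and keeps them from their receptors, fell from 6.57 ± 1.54 to 1.85 ± 0.374 TPM in WT and from 4.65 ± 1.41 to 2.15 ± 0.91 TPM in Nlrx1-/- cells (log2 fold changes -1.60 and -0.99). Bmper fell (-0.76 and -1.04). Bmp1, a protease that cleaves chordin (-0.09, -0.16), and Chrd (-0.19, -0.60) were called in Nlrx1-/- cells, and Nbl1 was called in neither (-0.02 and -0.10).

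Of 13 intracellular genes, Smad9, the third BMP-activated SMAD, fell by 1.52 in WT and 1.40 in Nlrx1-/- cells, and Smad5 was called in neither (-0.11 and -0.20). The ubiquitin ligase Smurf1 rose (0.41 and 0.62) and the corepressor Ski fell (-0.16 and -0.17). Smad4 (-0.25 in WT, -0.10 in Nlrx1-/- cells) and Zfp423 (-0.38, -0.01) were called in WT. Bambi (0.35, 1.07), Ppm1a (0.17, 0.33), Skil (-0.23, -0.50) and Tob1 (0.08, 0.19) were called in Nlrx1-/- cells. Of 4 other target genes, Hey1 (-0.71 and -0.95) and Atoh8 (-0.92 and -0.74) fell in both, while Msx1 (0.30, 0.56) and Msx2 (-0.07, 1.37) were called in Nlrx1-/- cells.

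Of 4 bHLH partners of Id proteins tested, 0 were called by edgeR in either response (unadjusted p below 0.05 for 0 in WT and 1 in Nlrx1-/- cells). The log2 fold changes in WT and Nlrx1-/- cells were 0.05 and 0.01 for Tcf3, -0.04 and 0.10 for Tcf12, -0.06 and -0.09 for Olig2 and -0.31 and -0.36 for Tcf4 (called lower by DESeq2 in both genotypes and by limma-voom in Nlrx1-/- cells). The counts tested for Tcf4 fell short of the deposited log2 CPM by over 0.5 in every library, and limma on the deposited values gave -0.04 in WT (adjusted p = 0.551) and -0.02 in Nlrx1-/- cells (adjusted p = 0.75). For Smad9, Fst, Chrd, Skil, Gdf6 and Bmp5 the shortfall was over 0.3 in at least 1 library. On the deposited values, limma gave -1.33 and -1.35 for Smad9 and 2.26 and 2.51 for Fst. It gave -0.30 and -0.27 for Skil (limma adjusted p = 0.00709 and 0.00952) and -1.59 and -2.55 for Gdf6 (0.0305 and 0.00192). On those values Skil and Gdf6 thus passed in WT cells too, unlike in edgeR.

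**Figure D5:**
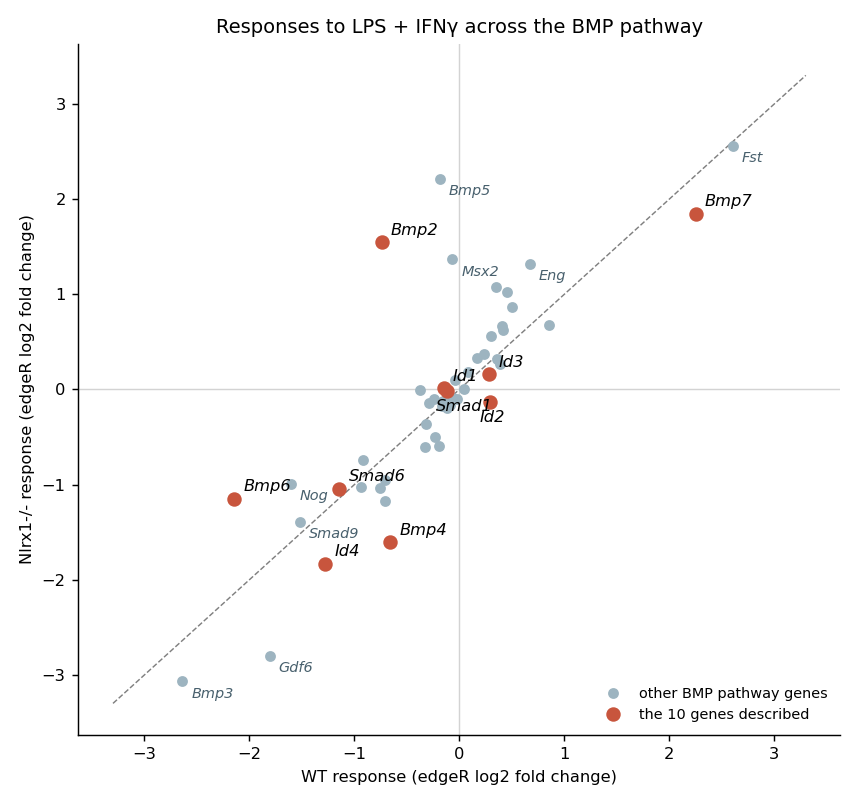
Response to LPS + IFNγ in Nlrx1-/- cells against that in WT cells (edgeR log2 fold changes) for the 10 genes (red) and other BMP pathway genes named in the text (grey), with a dashed line where both are equal. Bmp7 and Fst lie at the upper right, Bmp3, Id4 and Bmp6 at the lower left, and Bmp2 (-0.74, 1.55) and Bmp5 (-0.19, 2.21) are far from the line at low levels.

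Between the genotypes, 0 of the 47 other pathway genes were called by edgeR in vehicle (11 at an unadjusted p below 0.05). DESeq2 called 2 of 41, where it called 5.89% of all genes. With LPS + IFNγ, edgeR called 4, 8.51% against 5.03% of all genes. DESeq2 called 10 of 43, limma-voom 2 of 47 and limma on deposited values 5 of 47. Over all genes these tools called 18, 2.41 and 8.8%, in the same order. The co-receptor Eng was higher in Nlrx1-/- cells by 1.30 (SE 0.34, edgeR adjusted p = 0.0455), at 1.15 ± 0.408 against 0.472 ± 0.0458 TPM. Bmpr1a (-0.25, adjusted p = 0.0483), Bmpr1b (-0.72, adjusted p = 0.0488) and Twsg1 (-0.42, adjusted p = 0.045) were lower, all close to the threshold in edgeR.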

How the data were processed

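RNA-seq of 16 astrocyte libraries was used. Per the labels, Salmon 1.7.0 was run on the GRCm39 transcriptome, and the authors deposited expected counts and TPM (with effective lengths) per transcript. The authors also deposited log2 CPM per gene, with a prior count, from limma 3.58.1. Expected counts were summed per gene and rounded, and tested with edgeR 4.0.16 in R 4.3.3 (quasi-likelihood, TMM, offsets for transcript length, a filterByExpr minimum of 10 counts, Benjamini-Hochberg adjustment over 16066 genes, threshold 0.05). Responses and their difference used the study's formula, with litters within genotype. Genotypes were compared in a fit of 4 groups with no litter term, since a litter holds 1 genotype only. The pairing of wells by litter comes from the series description. Paired libraries had a correlation of deviations of 0.0733 to 0.355, against a median of -0.0517 for other litters. Litters are the replicates.

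Alternatives were DESeq2 1.42.0, limma-voom, limma on deposited values, DESeq2 size factors, no length offsets, no count filter, other blocks, the 8 libraries of a treatment alone and leaving out each litter. On simulated data with 200 of 16066 genes changed by 1 log2 unit, edgeR recovered 71% for the WT response, 65% for the difference of responses and 70.5% for vehicle. The simulated counts held no differences between litters, so the value for vehicle cannot show what the genotype comparison recovers in these data. Some genes of the lists are not reported here and were left out of the lists' counts and sums. Members and lists were chosen with earlier results of these data known. Named were the 10 genes, Nlrx1, other pathway genes called in either response plus up to 4 per list with the highest TPM, and for Id1 and Id3 the 3 genes most alike with at least 1 CPM. Fold changes of genes with few reads depend on the prior count. Read pairs per gene give the depth, and the standard errors hold the spread between litters. Tables and plots used Python 3.11.15, numpy 2.4.6, scipy 1.17.1, pandas 2.3.3 and matplotlib 3.10.9.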

Additional observations from a re-analysis of the deposited data

Results flagged for a closer look

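The response of Bmp4 differed between the genotypes by -0.976 (Nlrx1-/- minus WT, deposited log2 CPM, exact permutation p = 0.0286), with a larger fall in 4 of 4 Nlrx1-/- litters than in any WT litter. The response of Id2 differed by -0.42 (exact permutation p = 0.0286), with every WT litter above every Nlrx1-/- litter. Both are at the smallest p the 8 litters allow and neither passed over all genes in edgeR (adjusted p = 0.223 for each). Such separated responses occurred for 8.31% of all genes. In the stimulated Nlrx1-/- libraries, Bmp4 had only 6 to 118 read pairs. A sample far from the rest of its group was looked for in 60 groups of values, and 0 were found.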

How the results depend on the processing

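Calls for Bmp7 and Id4 in both responses and for Bmp6 in WT were kept under all alternatives run. Without the litter pairing (no replicate block), 1 member was called higher and 2 lower in WT, and 2 higher and 1 lower in Nlrx1-/- cells. DESeq2, limma-voom and limma on deposited values each called 2 higher in Nlrx1-/- cells, with Bmp2 added. Between genotypes DESeq2 called 1 member higher in vehicle, and 1 higher and 2 lower with LPS + IFNγ. With LPS + IFNγ, limma on deposited values called 2 lower (Id2 and Id4), and a replicate block by number 3 lower (Bmp4, Id2 and Id4). Whether equal numbers pair WT with Nlrx1-/- litters is not known. Deviations of WT and Nlrx1-/- libraries of equal number had correlations of -0.0341 to 0.18 in vehicle and -0.0892 to 0.149 with LPS + IFNγ. Leaving out 1 litter gave 2 to 3 members higher and 2 to 4 lower in WT, 1 to 3 and 2 to 4 in Nlrx1-/- cells, 0 to 1 lower for the difference of responses, 0 to 1 higher and 0 to 2 lower in vehicle, and 0 to 2 higher and 0 to 4 lower with LPS + IFNγ.

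Over all genes, with no count filter 27.4% were called in WT, 31% in Nlrx1-/- cells, 0.00413% for the difference of responses, 0.00413% in vehicle and 2.28% with LPS + IFNγ. DESeq2 called 2.88, 5.89 and 18% in the last 3, limma-voom 0.00622% in vehicle and 2.41% with LPS + IFNγ, limma on deposited values 0.00599 and 8.80%, and the replicate block 0.00622 and 13.7%. The 8 stimulated libraries alone gave 0%. Leaving out 1 litter gave 0 to 1.95% for the difference, 0 to 8.04% in vehicle and 0.00614 to 20.5% with LPS + IFNγ, where each omission changed the share and the highest was without Nlrx1-/- litter 3. The causes were not tested.

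Values near 0 changed sign. The Nlrx1-/- response of Id1 was -0.04 with limma-voom, -0.0512 without the block and -0.20 to 0.26 over left-out litters, that of Smad1 reached 0.0454, and that of Zfp423 was 0.011 on deposited values and -0.0972 to 0.0817 over left-out litters. For the difference of responses Smad6 was -0.00671 without the block and -0.13 to 0.387 over left-out litters, and Id1 -0.05 to 0.411. With LPS + IFNγ, Smad1 ranged from -0.094 to 0.0194. Over left-out litters the WT response of Bmp5 was -1.22 to 0.433, of Msx2 -0.361 to 0.149, of Nbl1 -0.0387 to 0.0252 (0.0207 without length offsets) and of Olig2 -0.118 to 0.0308, and the Nlrx1-/- response was -0.131 to 0.00302 for Olig2, -0.0259 to 0.0722 for Tcf3 and -0.071 to 0.0454 for Smad1. Bmp2 and Smad6 had the lowest mean TPM of the 10 genes, and the count of Bmp4 went down to 6 read pairs. Bmp2 had the largest standard error of the 10 in both responses. Of the other results on the 10 genes, 705 were unchanged in direction and call, 20 lost a call and 27 gained one.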

Other observations

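Markers of other cell types are given as measured. The 4 endothelial markers summed to at most 3.56 TPM and the 4 pericyte and fibroblast markers to 3.6 to 17.3 TPM. The 3 ependymal markers summed to 136 to 193 TPM in WT vehicle, 84.4 to 117 TPM in stimulated WT, 76.6 to 143 TPM in Nlrx1-/- vehicle and 45.8 to 80.8 TPM in stimulated Nlrx1-/- libraries, which did not overlap with stimulated WT libraries. Nearly all of the ependymal sum was 1 gene, Foxj1, with group means of 155, 93.6, 109 and 63.1 TPM in the same order of groups. The 3 choroid plexus markers summed to between 3.0 and 32.2 TPM over all libraries. The 4 neuronal markers summed to 12.7 to 20.6 TPM in the vehicle libraries and to 61.6 to 99.7 TPM with LPS + IFNγ, which was a change of Tubb3 (group means of 13.2 and 74.4 TPM in WT, 10.6 and 69.2 TPM in Nlrx1-/- cells). By edgeR 1 of the 4 was called higher and 1 lower in WT, and 2 higher and 2 lower in Nlrx1-/- cells. Gfap, an astrocyte filament gene, had group means of 1285 TPM in WT vehicle, 784 TPM in stimulated WT, 505 TPM in Nlrx1-/- vehicle and 411 TPM in stimulated Nlrx1-/- cells. The part of these levels in the results was not tested.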
